A study of Mus musculus with 57 samples.

Results

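Levels of 8 imprinted growth genes (H19, Igf2, Cdkn1c, Plagl1, Peg3, Mest, Grb10 and Ndn) were described in single cells sorted as mouse renal vesicle, the epithelial ball from which each nephron grows. They are 8 of the 12087 genes with a row in the deposited table, found by symbol, and they were chosen by their measured values in these same cells, so their levels, pairings and biases are given as descriptions with no test. The 57 cells form 1 group and came from 1 pool of 2 kidneys at postnatal day 4 (P4, stage TS27). All carried the transgene Tg(Crym-EGFP)GF82Gsat, in which the Crym gene's regulatory sequence drives EGFP, on a mixed strain background, with sex unknown for nearly every cell. After trypsin digestion and fluorescence sorting, single cells were caught in a Fluidigm C1 chip, their cDNA was amplified with the SMARTer kit, and all libraries were read in 1 lane. How many animals the 2 kidneys came from is not stated, and with 1 pool every spread below is between cells, not animals.

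An imprinted gene is transcribed mainly from the allele inherited from 1 parent, and many such genes set growth before and after birth. H19, Cdkn1c and, in most tissues, Grb10 are expressed from the maternal allele and restrain growth. Igf2, Mest, Peg3, Plagl1 and Ndn are expressed from the paternal allele, and Igf2, the insulin-like growth factor of the fetus, promotes it. In mouse, H19 and Igf2 share enhancers across an imprinting control region, while Cdkn1c lies in the neighbouring Kcnq1ot1 domain, and Plagl1 is a zinc finger factor known to act on several imprinted genes. In the developing kidney, Cdkn1c encodes the cell cycle inhibitor p57 of differentiating podocytes, the filtering cells of the glomerulus, and Wt1 is the transcription factor that marks their lineage. The deposited values are not split by allele.

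3 of the genes host a microRNA: H19, whose RNA is noncoding and is the precursor of miR-675, Igf2 with miR-483 in an intron, and Mest with miR-335 in an intron. Their mature sequences are shown because the host level is the closest these data come to them. No microRNA was measured. Each is written 5′ to 3′ from RefSeq on build GRCm38.p6, with the seed, bases 2 to 8, in capitals, and each arm has a seed of its own. The miR-675-5p arm lies at chr7:142577112-142577133 on the minus strand, miR-483-5p at chr7:142654968-142654989 on the minus strand and miR-335-5p at chr6:30741314-30741336 on the plus strand.
miR-675-5p: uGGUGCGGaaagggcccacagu
miR-675-3p: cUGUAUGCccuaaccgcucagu
miR-483-5p: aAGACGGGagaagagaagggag
miR-483-3p: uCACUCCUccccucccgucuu
miR-335-5p: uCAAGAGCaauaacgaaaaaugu
miR-335-3p: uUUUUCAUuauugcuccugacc

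Plagl1 is known to bind GC-rich DNA, and a motif of that kind was looked for at the start sites of the 8 genes. RefSeq start-site windows of 250 bases upstream were matched for 6 of the 8 genes, with 12 windows in all, and were searched on both strands for GGGGCCCC, a motif described for Plagl1. It reads the same on both strands. Of the 12 windows, 1 held it, the window of Peg3 at chr7:6730420-6730669 on the minus strand of GRCm38.p6, and 0.889% of all 32851 windows held it. That window is shown first with the motif in capitals, and the Igf2 window with the most CpG pairs among its 4, at chr7:142658805-142659054 on the minus strand, follows it without a match. A match is a description of letters and not of binding.
Peg3: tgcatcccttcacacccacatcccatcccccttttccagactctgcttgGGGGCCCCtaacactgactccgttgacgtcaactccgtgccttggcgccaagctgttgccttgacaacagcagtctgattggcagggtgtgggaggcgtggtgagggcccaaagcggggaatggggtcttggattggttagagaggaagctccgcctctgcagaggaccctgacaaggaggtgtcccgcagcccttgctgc
Igf2: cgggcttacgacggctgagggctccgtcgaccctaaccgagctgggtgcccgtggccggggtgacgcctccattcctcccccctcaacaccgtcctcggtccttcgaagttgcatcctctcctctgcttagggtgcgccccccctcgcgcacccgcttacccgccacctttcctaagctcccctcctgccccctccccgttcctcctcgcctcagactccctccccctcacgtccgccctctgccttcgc

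The unit is RPKM, a read density corrected for gene length and for library depth, which allows levels of different genes to be set beside each other. A gene was called detected at RPKM 1 or more and strongly expressed at RPKM 10 or more. Depth, estimated from the RPKM worth of 1 read, was 0.474 to 2.29 M reads per cell (median 1.47), and 2809 to 6502 genes were detected per cell (median 4307). At the median depth 1 read equalled RPKM 0.26 for H19, 0.16 for Igf2, 0.35 for Cdkn1c and 0.0508 for Peg3. An RPKM near 1 thus rests on a few reads for H19, Igf2 and Cdkn1c, and on more for Peg3. The detection threshold of RPKM 1 therefore asks for more reads of Peg3 than of Cdkn1c. Most cells carried the renal vesicle label's markers: Pax8, a transcription factor of nephron epithelium, was at RPKM 5 or more in 50 cells. Of the other 7, 5 were macrophage-like, with C1qb at RPKM 500 or more, 12 to 14 of 14 macrophage markers detected and a summed RPKM of 10000 to 20600 over those markers. In the Wt1-only cells defined below the sum was 0 to 219, with 0 to 9 markers detected. In the 2 remaining cells, cells 13 and 53, 9 and 10 of 13 stromal markers were detected, among them Col1a2 and Col3a1, with a summed RPKM of 3060 and 3130. Such markers were not limited to cells low in Pax8, since cell 28, with Pax8 at RPKM 758, had 11 of the 13 with a summed RPKM of 926. The main results are also given over the 50 other cells, called the Pax8 cells.

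Mest, an endoplasmic reticulum protein of the hydrolase fold, and H19 were the most abundant of the genes. Mest had a median of RPKM 113 and a highest value of 1481 in cell 8, and was strongly expressed in 41 of 57 cells. H19 had a median of RPKM 54.6 and a highest value of 2845 in cell 17, and was strongly expressed in 34 cells. Both genes spanned from 0 to above RPKM 1000 over the 57 cells, and the upper quartile was close between them, at 304 for Mest and 312 for H19. The only cell with Mest at 0, cell 46, was macrophage-like. Cdkn1c had a median of RPKM 39.5 and a highest value of 344, with 35 cells at RPKM 10 or more. Grb10, an adaptor that dampens insulin and IGF receptor signalling, had a median of 14.1, a highest value of 207 and 32 such cells. These 4 genes were detected in 44 to 47 cells, against a median of 16 cells over all 12087 rows.

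Lower medians belonged to Peg3, Ndn, Igf2 and Plagl1. Peg3, a zinc finger protein, had a median of RPKM 6.41 and a highest value of 186. Ndn, a MAGE family protein that restrains growth in neurons, had a median of 6.17 and a highest value of 595. Igf2 had a median of RPKM 2.86 and a highest value of 190 in cell 44, and 22 cells held it at RPKM 10 or more. Igf2 thus had a lower median than H19 from the same locus. Plagl1 was detected in 4 cells only (7.02% of cells, exact Clopper-Pearson 95% interval 1.95 to 17.0%, which covers the sampling of cells alone), and was listed at 0 in 36. In the order of the medians, the interquartile ranges of neighbouring genes overlapped except for Igf2 and Plagl1, whose upper quartile was RPKM 0.115 against a lower quartile of 0.24 for Igf2.

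The 4 cells with Plagl1 held it at high levels, not near the threshold. Its RPKM was 376 in cell 13, 272 in cell 29, 88.1 in cell 9 and 55.0 in cell 18. Mest was at RPKM 304 to 955 in all 4, against a median of 113 over all cells, and Wt1 was at RPKM 35.3 to 431. Cell 13 was one of the 2 low Pax8 cells with stromal markers, with Col3a1 at RPKM 231 and Pax8 at 0.744. H19 was at RPKM 376 to 552 in the other 3 and at 0.958 in cell 13.

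The genes were expressed in different combinations from cell to cell. A median of 4 of the 8 was strongly expressed per cell, with 0 to 7 in single cells and no cell with all 8. In the macrophage-like cells the count was 0 in 4 cells and 1 in 1 cell, where Mest reached RPKM 216. H19 varied more than most genes of like abundance. Its SD over cells was 1.89 times its mean (227 ± 429, SD, n = 57 cells), against a median ratio of 0.893 for 536 genes within 2-fold of its mean, of which 4.48% had a higher ratio. Cell 17 alone held 22.0% of all H19 RPKM. The same ratio was 1.6 for Igf2 against a median of 2.02, 1.31 for Cdkn1c against 1.49 and 1.32 for Grb10 against 1.92 among genes of like mean, so those 3 were below the median of their level. Peg3 was below it too, at 1.6 against 1.97. Above it, like H19, were Mest at 1.34 against 0.897, Ndn at 1.83 against 1.44 and Plagl1 at 4.45 against 2.48.

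Cells were next placed by proximal and distal marker genes. A Wt1-only cell had Wt1 at RPKM 20 or more with Sox9 and Pou3f3, transcription factors of the distal vesicle, below 20, and a distal-gene-only cell had Sox9 or Pou3f3 at 20 or more with Wt1 below 20. With the macrophage-like cells left out there were 34 Wt1-only and 12 distal-gene-only cells, 2 with both and 4 with neither. The classes come from measured values, so their differences are descriptions.

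**Figure D1:**
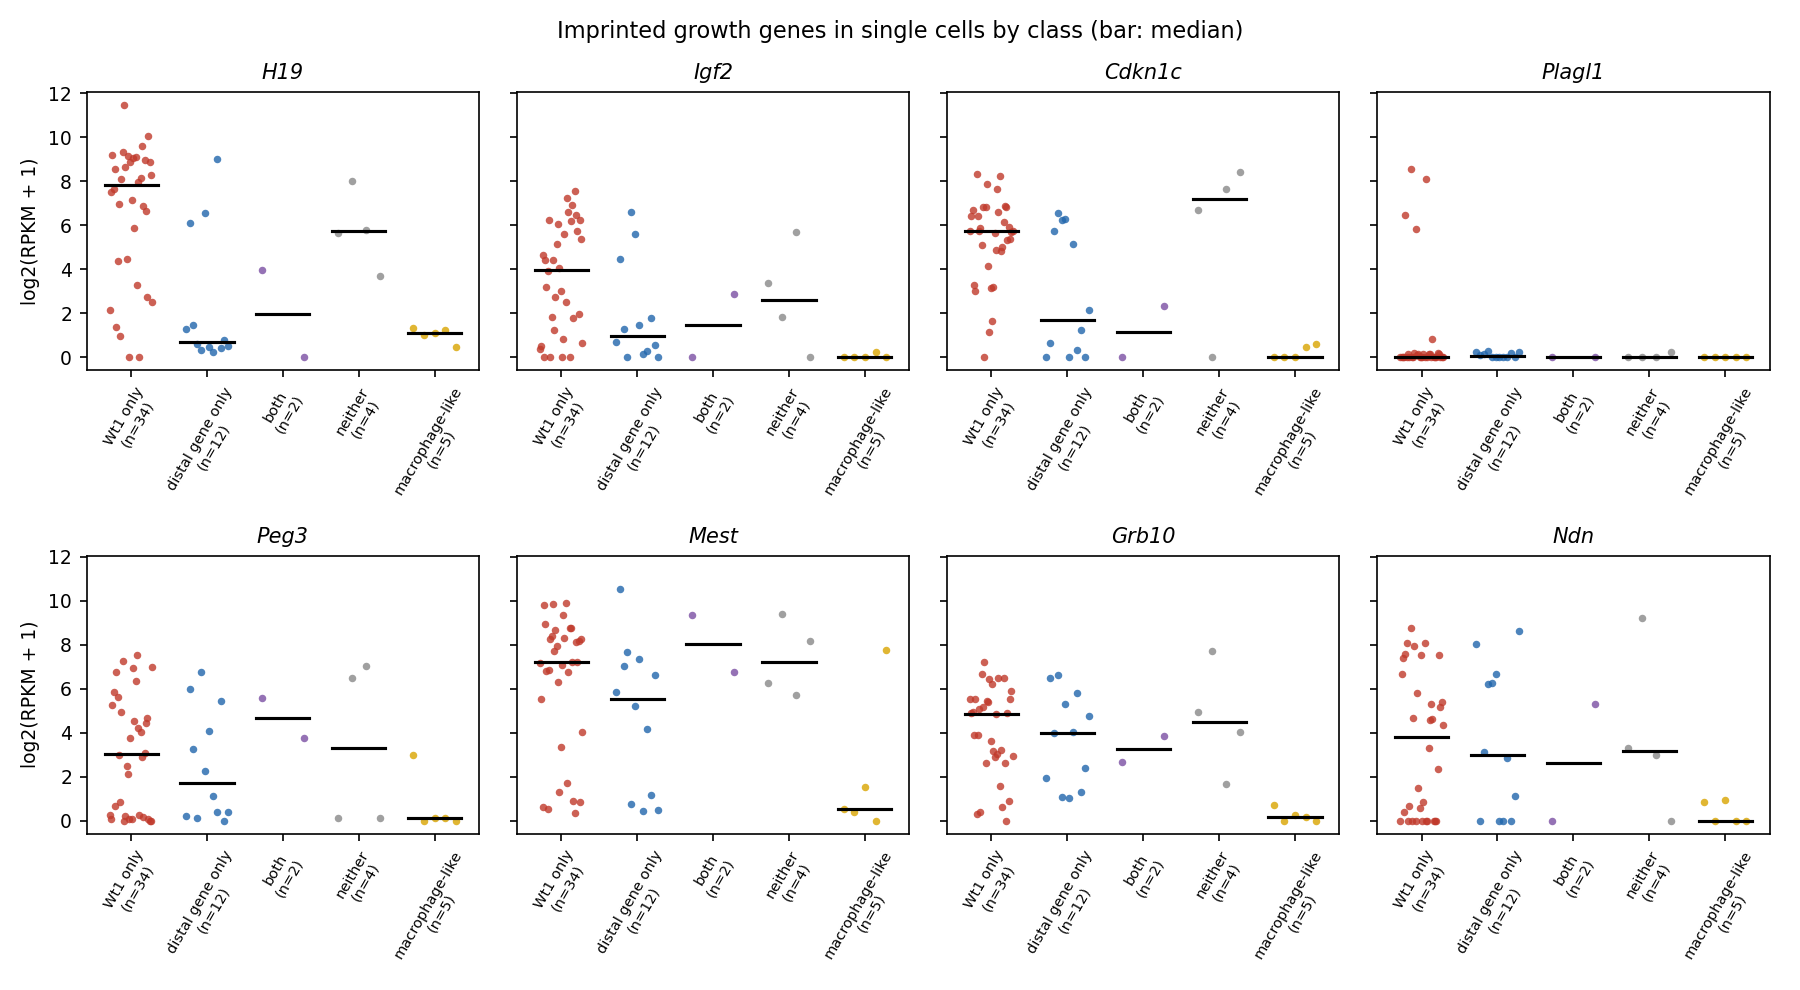
Level of each of the 8 genes as log2(RPKM + 1), vertical axis, in the 57 cells by class, horizontal axis, with 1 point per cell and a bar at the median. H19 separates the 34 Wt1-only cells (median RPKM 224) from the 12 distal-gene-only cells (0.642) more widely than the other genes, and in the macrophage-like cells 7 of the genes stay below RPKM 10.

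H19 carried the widest proximal bias. It ran from RPKM 0 to 2845 with a median of 224 in the 34 Wt1-only cells, against 0.189 to 517 with a median of 0.642 in the 12 distal-gene-only cells. The ranges overlapped, but 26 of the Wt1-only cells (76.5%, 58.8 to 89.3%) and 3 of the distal-gene-only cells (25.0%, 5.49 to 57.2%) reached RPKM 10. The difference in median log2(RPKM + 1) was 7.1, the largest of the 10391 genes detected in at least 5 cells. The other 9 distal-gene-only cells held H19 at RPKM 0.189 to 1.74, the range of the macrophage-like cells (0.384 to 1.5), which is a few reads per library. The 3 distal-gene-only cells with H19 were cell 47 at RPKM 517, cell 33 at 91.8 and cell 8 at 67.5, with Tmem100, a proximal marker, at RPKM 22.6, 16.6 and 8.24. Tmem100 ranked highest on the proximal side in the authors' comparison of some of these same cells, so it is no outside marker here. Cell 47 was close to the class limits, with Pou3f3 at RPKM 20.8, Sox9 at 0.123 and Wt1 at 10.9. With the class threshold at RPKM 5 or 50 it was not a distal-gene-only cell. The highest Tmem100 of the class, RPKM 155.6, was in cell 45, which had the lowest H19 of the 12, and the other 8 cells had it below RPKM 1.

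Cdkn1c followed with a median of RPKM 51.9 in Wt1-only cells and 2.37 in distal-gene-only cells, a difference of 4.04 on the log2 scale and rank 47 of all genes. Its range was 0 to 316 in Wt1-only cells against 0 to 92.9 in distal-gene-only cells, so the classes overlapped, and 27 of 34 against 5 of 12 cells reached RPKM 10. Igf2 had medians of RPKM 14.8 in Wt1-only cells and 1.03 in distal-gene-only cells, a log2 difference of 2.99, with 18 of 34 against 3 of 12 cells at RPKM 10 or more. One of those 3, cell 32, held Igf2 at RPKM 96.7 with H19 at 0.253.

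The remaining genes leaned the same way by less. Mest had a median of RPKM 148 in Wt1-only cells and 46.7 in distal-gene-only cells, although its highest cell of all, cell 8, was distal-gene-only. Median RPKM in Wt1-only against distal-gene-only cells was 7.23 against 2.53 for Peg3, 28.2 against 15.1 for Grb10 and 14.2 against 6.99 for Ndn. These smaller differences depended on the class threshold. On the log2 scale that of Grb10 was 0.86, and −0.10 with the threshold at RPKM 5. That of Peg3 was 1.33, and 0.49 with it at 50, and that of Mest was 1.68, and 0.45 with it at 50. The difference of Ndn was 0.84, 2.19 with the threshold at 50 and 0.33 without the 1 Wt1-only cell low in Pax8. Plagl1 was near 0 in both classes, and its 4 cells were all Wt1-only. In all, 5 of the 8 genes were higher by at least 1 on the log2 scale in Wt1-only cells, where 8.35% of all genes were. They were H19, Cdkn1c, Igf2, Mest and Peg3, and with the threshold at RPKM 50 the 5 were H19, Cdkn1c, Igf2, Grb10 and Ndn. Because the genes were picked with their values known, that share is no evidence for a property of imprinted genes. In the 2 cells with both kinds of marker H19 was at RPKM 14.4 and 0.

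Against a score that used more markers, the mean log2(RPKM + 1) of 17 proximal genes less that of 16 distal genes, H19 had a Spearman rho of 0.43 and Mest of 0.40 over the 57 cells. They were the 2 of 8 genes past 0.3 in size, where 6.61% of all genes were. By Pearson r of log2(RPKM + 1) the 2 were H19 and Cdkn1c, each at 0.31, with Mest at 0.25. In Spearman rho, Cdkn1c had 0.25, Ndn 0.098, Plagl1 0.058, Igf2 0.034, Grb10 −0.058 and Peg3 −0.092. In the 50 Pax8 cells H19 had 0.50, made up of 0.29 with the proximal score alone and −0.49 with the distal score alone. The points share 1 pool and 1 lane, and the number of detected genes, which varied between cells, had a rho of 0.14 with H19. All correlations across cells below share those sources too.

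The authors' deposited table sets a proximal class against a distal class in 28 of these cells and lists 787 genes, 436 of them higher in the proximal class. The 28 cells comprised 17 of the 34 Wt1-only cells, 10 of the 12 distal-gene-only cells and 1 with neither marker. In the authors' deposited table H19 had a signed fold of 115, second of the 436 after Tmem100 at 173 and before Wt1 at 96.1. Cdkn1c had a signed fold of 4.61 in the authors' deposited table and rank 305. The other 6 genes had no row there, while 6.5% of the genes of the larger table had one. The authors' fold and the class medians rest on the same cells, so they are not separate evidence, and the sources used here do not state how the fold was computed.

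The cells with the most Wt1 departed from this pattern. The 3 highest, cells 2, 10 and 34, had Wt1 at RPKM 1382, 1020 and 865 and were the only ones with at least 3 of the podocyte genes Nphs1, Podxl, Synpo and Ptpro at RPKM 10 or more. H19 was at RPKM 3.39, 1.59 and 0 in them. The other 31 Wt1-only cells had a median H19 of 274, and 26 of them reached RPKM 10. Cdkn1c was at RPKM 52.1, 316 and 300 in the same 3 cells, against a median of 51.3 and a highest value of 230 in the other 31. Igf2 was at 0.299, 8.18 and 0, against a median of 20.3, and Mest was at RPKM 109 to 432, against a median of 149.

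In these 3 cells H19 was low and Cdkn1c was at or above the level of the other Wt1-only cells. Of the next 6 cells by Wt1, 4 had H19 at RPKM 10 or more. Cell 49 had Wt1 at RPKM 566 with H19 at 5.63, and cell 7 had Wt1 at 560 with H19 at 202. Cells 18, 26 and 11, with Wt1 at RPKM 431, 420 and 419, had H19 at 401, 139 and 20.1, and cell 30 had Wt1 at 393 with H19 at 8.85. By level of Wt1 with macrophage-like cells left out, median H19 was RPKM 11.8 below Wt1 1 (9 cells), 0.537 from 1 to 20 (7 cells), 181 from 20 to 200 (19 cells), 277 from 200 to 500 (12 cells) and 3.39 at 500 or more (5 cells). Over the same steps median Cdkn1c was RPKM 34.2, 3.39, 51.6, 44.4 and 52.1. These steps and the 3 podocyte gene cells were chosen after their values were seen, and with 3 cells no spread can be given.

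**Figure D2:**
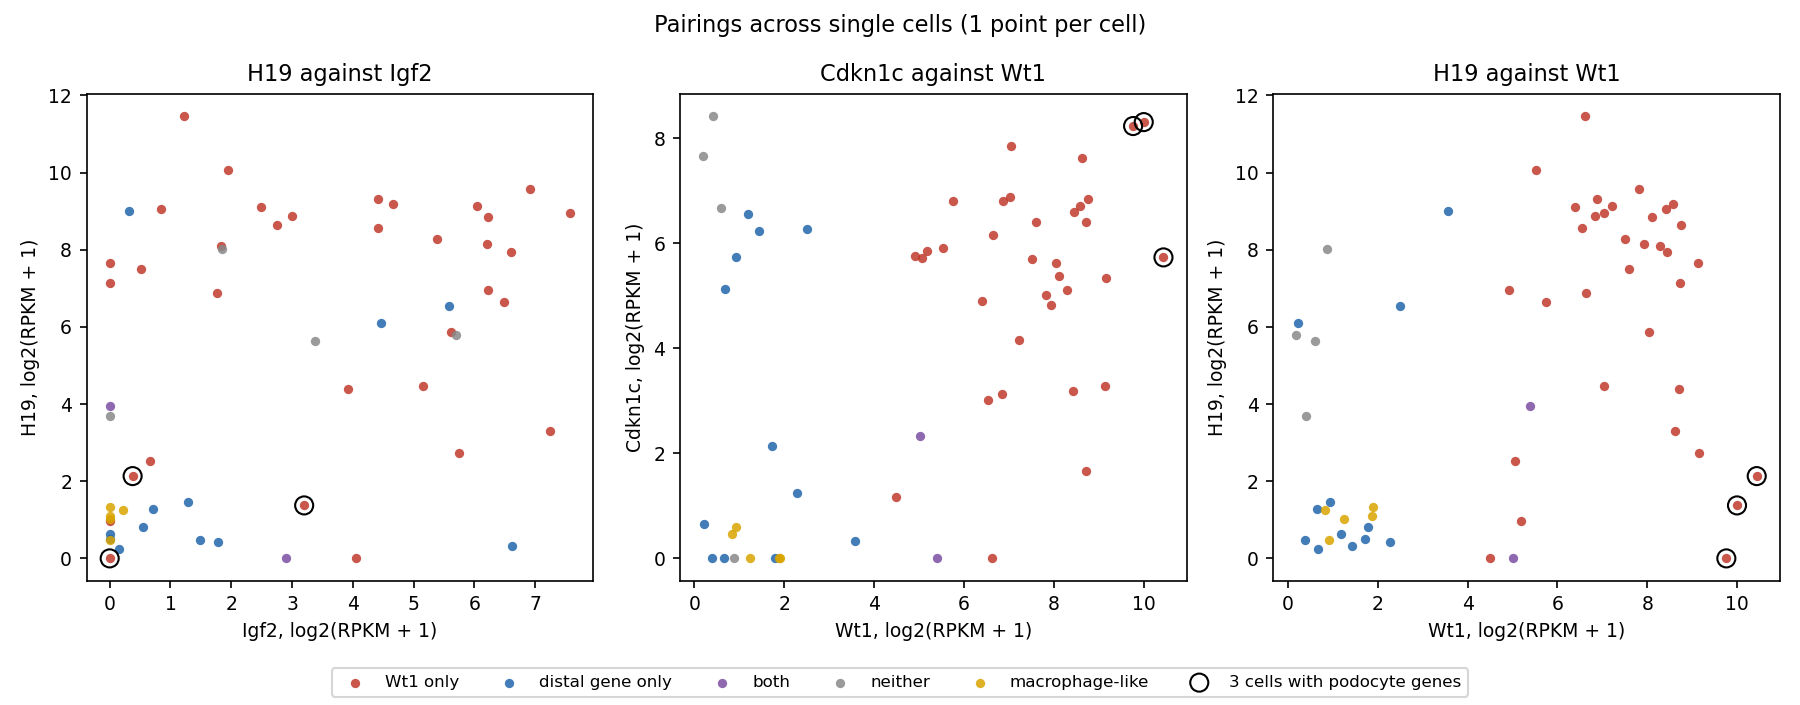
H19 against Igf2, Cdkn1c against Wt1 and H19 against Wt1 in 57 cells, each axis as log2(RPKM + 1), with points coloured by class and the 3 cells with podocyte genes circled. The circled cells lie at the right edge of the panels on Wt1, at the top or middle for Cdkn1c (RPKM 52.1 to 316) and near 0 for H19 (0 to 3.39).

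The pairing of Cdkn1c with Wt1 was positive but loose. Spearman rho was 0.35 over 57 cells and 0.35 over the 50 Pax8 cells. Both genes were detected in 39 cells, where independence would give 35.5, and both were at RPKM 10 or more in 27 cells against 22.7. Cdkn1c was high without Wt1 in 8 cells. Among them were cell 53, the highest of all at RPKM 344 with Wt1 at 0.33, Col1a2 at 147 and Col3a1 at 123, and cell 42, with Cdkn1c at 202 and Wt1 at 0.14. H19 was tied to Wt1 about as strongly, with a rho of 0.41 over all cells and 0.305 in Pax8 cells. Leaving out the 3 podocyte gene cells gave 0.55 for H19 and 0.29 for Cdkn1c (54 cells). H19 and Cdkn1c were thus the 2 of 8 genes with a rho of 0.3 or more to Wt1, where 3.0% of all genes had one.

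The pairing of H19 with Igf2 had a rho of 0.41 over 57 cells, 0.32 without the macrophage-like cells and 0.28 over the 50 Pax8 cells. Both lie on chromosome 7, H19 at chr7:149761436-149764051 and Igf2 at chr7:149836673-149846940 on build mm9, 72.6 kb apart. Both were at RPKM 10 or more in 18 cells, where independence would give 13.1, and 15 of the 18 were Wt1-only. In these 18 cells the RPKM of H19 over that of Igf2 had a median of 2.89 and ran from 0.614 to 31.3, with H19 higher in 17. H19 was strongly expressed without Igf2 in 16 cells, among them the 2 highest H19 cells, cell 17 with Igf2 at RPKM 1.35 and cell 51 with Igf2 at 2.86. Igf2 was strongly expressed without H19 in 4 cells: cell 30 at RPKM 150, cell 32 at 96.7, cell 49 at 52.6 and cell 23 at 15.6. High H19 therefore went with anything between 0 and RPKM 190 of Igf2.

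Igf2 was tied as closely to Cdkn1c, an inhibitor of the cell cycle from the neighbouring domain 797 kb away (chr7:150644244-150646955, mm9). Their rho was 0.40 over all cells and 0.39 in the Pax8 cells, and 19 of the 22 cells with Igf2 at RPKM 10 or more also had Cdkn1c there, where independence would give 13.5. H19 and Cdkn1c, by contrast, had a rho of 0.14 over all cells and 0.018 in the Pax8 cells. The difference between these correlations was not tested.

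**Figure D3:**
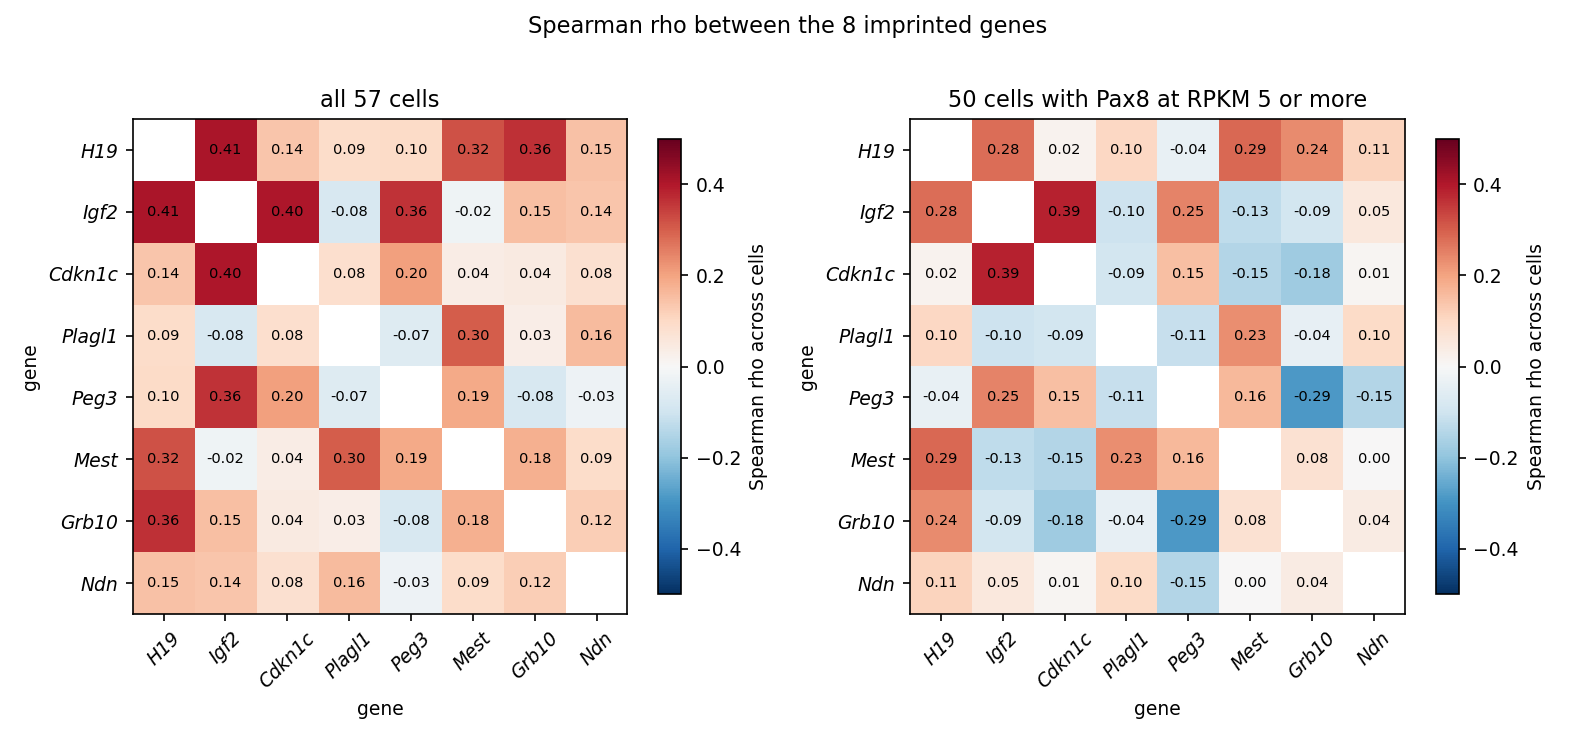
Spearman rho between each pair of the 8 genes over all 57 cells (left) and over the 50 cells with Pax8 at RPKM 5 or more (right), as colour and printed value, with a gene on each axis. Most pairs are paler on the right, where the median rho is 0.03 against 0.13 on the left, and Igf2 with Cdkn1c keeps 0.39.

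Of the 28 pairs among the 8 genes, 6 had a rho of 0.3 or more over the 57 cells, where 2.43% of all gene pairs did. Beside H19 with Igf2 and Igf2 with Cdkn1c, these were H19 with Grb10 (0.36), Igf2 with Peg3 (0.36), H19 with Mest (0.32) and Plagl1 with Mest (0.30). Over the 50 Pax8 cells 1 of the 28 did, Igf2 with Cdkn1c, where 2.96% of all gene pairs did. The median over the 28 pairs was 0.13 in all cells and 0.03 in Pax8 cells. The macrophage-like cells were below RPKM 10 for all 8 genes except for 1 cell with Mest, and without them alone 1 pair passed, H19 with Igf2. The lowest rho in the Pax8 cells was −0.29, between Peg3 and Grb10. Pairs expressed from the same parental allele had a median rho of 0.14 (13 pairs) and pairs expressed from different alleles 0.12 (15 pairs), with 3 pairs past 0.3 in each. Over the Pax8 cells the order turned round, with medians of 0.018 for the same allele and 0.042 for different alleles.

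Relations to scores of the cell cycle were weak. A G2/M score, the mean log2(RPKM + 1) of 27 mitotic genes, had a rho of 0.3 or more in size with 0 of the 8 genes, where 11.3% of all genes had one. The nearest was Igf2 at 0.298, and at 0.14 once the number of detected genes was regressed out. Cdkn1c, whose product p57 blocks cyclin-dependent kinases, had −0.067. Against an S phase score of 23 replication genes 2 of the 8 passed, Igf2 at 0.38 and H19 at 0.32, where 10.3% of all genes did, and neither passed in the 50 Pax8 cells (0.29 and 0.25). Igf2 had a rho of 0.29 with the number of detected genes. The part of the number of detected genes in these values was not tested beyond that regression and the leaving out of cells with the fewest detected genes. Depth itself was not adjusted for.

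**Figure D4:**
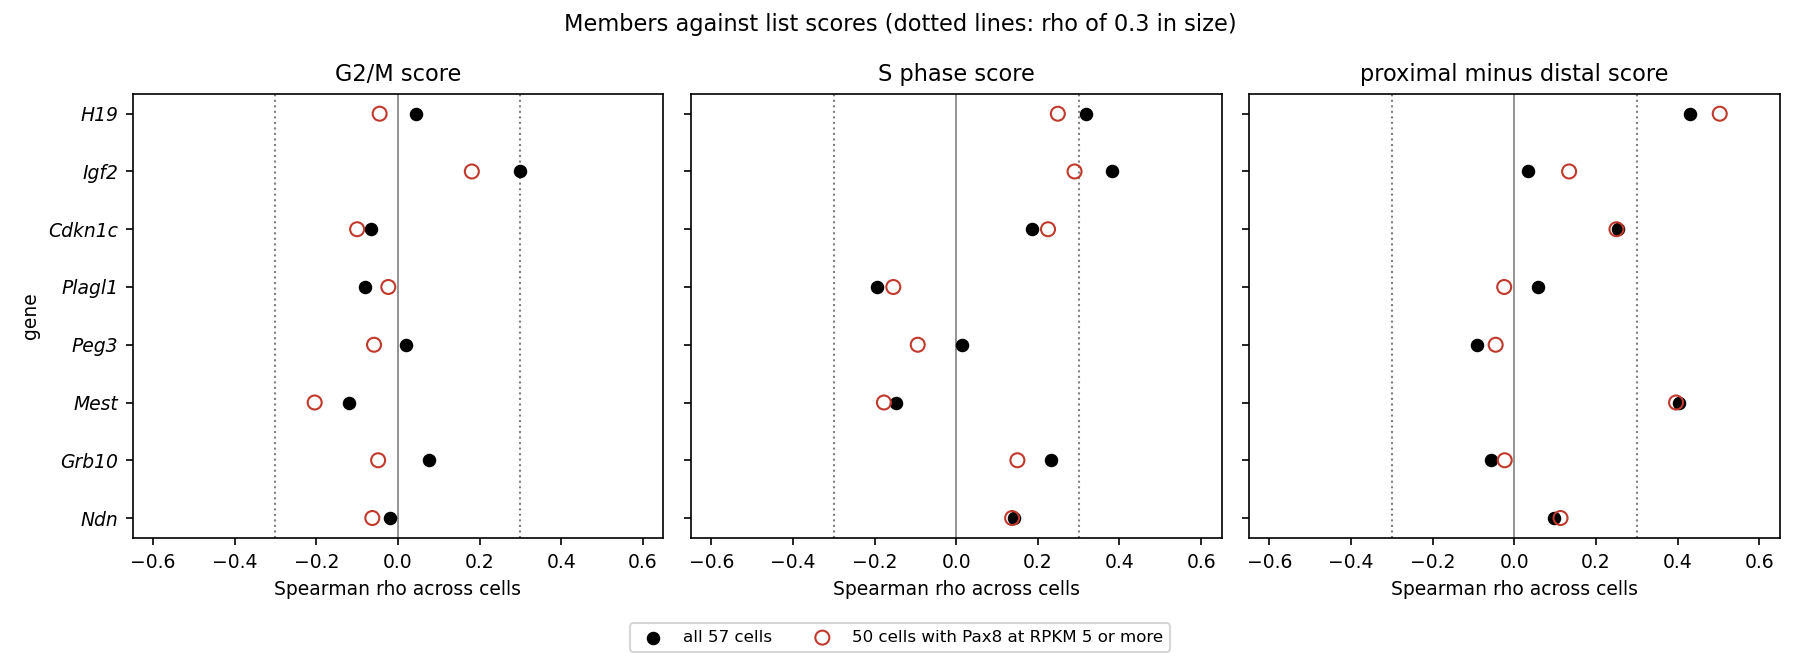
Spearman rho across cells, horizontal axis, of each of the 8 genes, vertical axis, with the G2/M, S phase and proximal minus distal scores, filled for all 57 cells and open for the 50 Pax8 cells. Dotted lines mark 0.3 in size, which Igf2 (0.38) and H19 (0.32) pass for S phase, and H19 (0.43) and Mest (0.40) for the proximal minus distal score.

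Igf2 differed more when cells were split by Ccnb1, the mitotic cyclin B1, which divided the 52 cells other than macrophage-like ones into 24 at RPKM 20 or more and 28 below. Igf2 had a median of RPKM 17.9 in Ccnb1-high cells, against 2.73 in Ccnb1-low cells, and reached RPKM 10 in 14 of 24 against 8 of 28. The difference of 2.33 on the log2 scale ran from 2.01 to 2.58 with other thresholds or without the low Pax8 cells. None of these settings adjusted for the number of detected genes, which had a rho of 0.29 with Igf2, and its part in the difference was not tested. Mest leaned the other way, with a median of RPKM 67.7 in Ccnb1-high cells against 175 in Ccnb1-low cells, and Cdkn1c had 32.8 in Ccnb1-high cells against 52.8 in Ccnb1-low cells. H19 had a median of 137 in Ccnb1-high cells against 62.3 in Ccnb1-low cells, and Ndn 14.2 against 5.99, with overlapping ranges for every gene. In all, 4 of the 8 differed by 1 or more on the log2 scale, 3 of them higher in Ccnb1-high cells, and 20.5% of all genes differed by that much in either direction. For H19 the difference was 1.04 on the log2 scale, and 0.65 without the low Pax8 cells, and its order turned round when the Ccnb1 threshold was RPKM 50. That of Ndn was 1.08, and 0.18 with the threshold at RPKM 5.

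The highest Cdkn1c cells differed in mitotic transcripts and also in kind. Cells 53, 10 and 34, with Cdkn1c at RPKM 344, 316 and 300, had G2/M scores of 0.202, 0.249 and 0.346, ranks 1, 2 and 5 from the lowest of the 57 cells, and Ccnb1 below RPKM 0.5 in each. The next 3, cells 21, 42 and 30, had Cdkn1c at RPKM 230, 202 and 196 and G2/M scores of 4.58, 3.94 and 4.03, above the median of 3.13. Top2a, the topoisomerase of dividing cells, was at RPKM 75.7, 296 and 96.1 in those 3, against 0.595, 0.747 and 1.6 in the first 3. Cdkn1c at RPKM 196 or more was thus found with and without mitotic transcripts. Cell 53 was the low Pax8 cell with stromal markers and little Wt1, and cells 10 and 34 were podocyte gene cells. By contrast, cells 21, 42 and 30 were Pax8 cells with Nphs1, Podxl, Synpo and Ptpro below RPKM 10. Cycle and kind of cell cannot be told apart among these cells.

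The genes whose levels most resembled each member were taken from about 8175 genes detected in at least 10 cells, as the 3 with the highest rho over the 57 cells. For H19 these were Nme2 (0.70), a nucleoside diphosphate kinase found in all 57 cells, Prr5l (0.69), which binds mTOR complex 2, and Lsp1 (0.63), an actin-binding protein first known from leukocytes. Lsp1 is itself a chromosome 7 gene, 80.9 kb from H19. Its rho to H19 was 0.67 in the Pax8 cells, and it was 0.12 with Igf2, on the other side of H19. Both H19 and Lsp1 were at RPKM 10 or more in 24 cells, where independence would give 16.1. Of the 27 cells with Lsp1 at that level, 3 had H19 below RPKM 10.

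**Figure D5:**
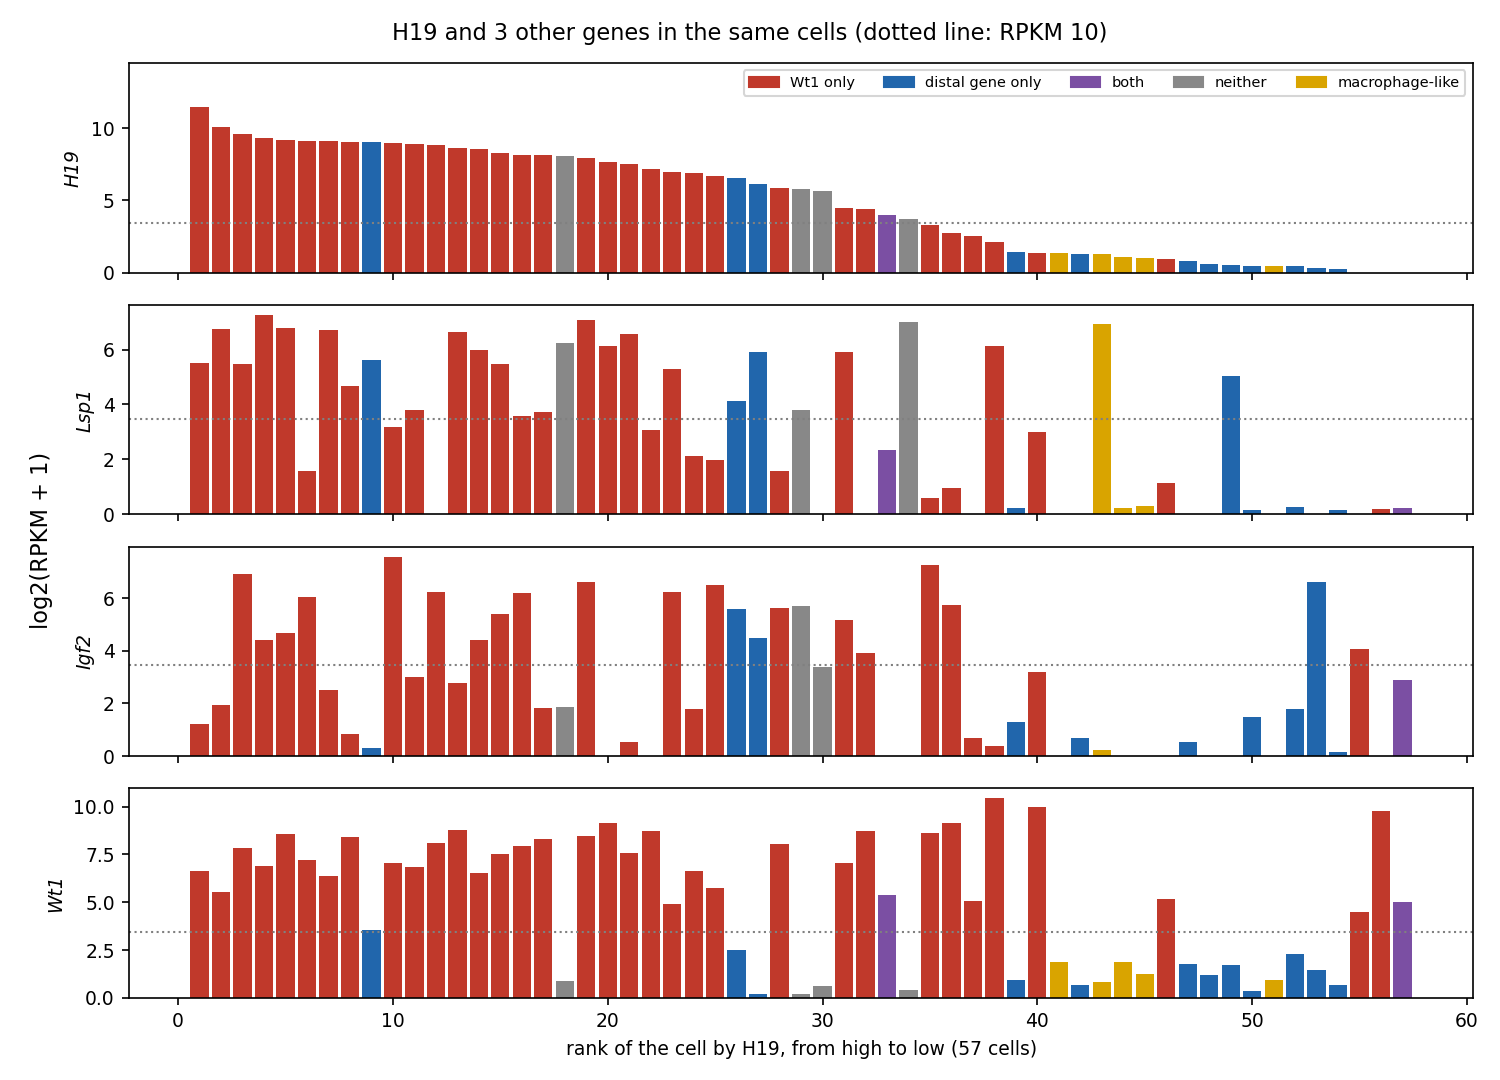
H19, Lsp1, Igf2 and Wt1 as log2(RPKM + 1), vertical axes, in the same 57 cells ordered by H19 from high to low, horizontal axis, with bars coloured by class and a dotted line at RPKM 10. Lsp1 bars thin out where H19 drops below RPKM 10 (24 of 27 Lsp1 cells have H19), Igf2 bars are scattered, and the tallest Wt1 bars stand among the low H19 cells.

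The rows within 200 kb of these loci gave the local picture. Mrpl23, a mitochondrial ribosome protein 34.8 kb from H19, had a rho of 0.40 with H19, and Tnnt3, a troponin 59.5 kb away and detected in 10 cells, had 0.38. Ctsd, a lysosomal protease 188 kb away, had −0.048, and 0.11 over the Pax8 cells, and Tnni2, found in 4 cells, −0.26. With Igf2, the same Mrpl23 and Tnnt3 rows had 0.10 and 0.18. Around Cdkn1c, Kcnq1ot1, the noncoding RNA that silences this domain on the paternal chromosome, had 0.30, and 0.23 over the Pax8 cells, Nap1l4, a histone chaperone, 0.27, Cars, a transfer RNA synthetase, 0.073 and Slc22a18, a transporter found in 2 cells, −0.14. Libraries kept no strand, so reads of overlapping genes on opposite strands cannot be told apart, which touches Kcnq1ot1 and the overlap of Mest with Copg2. Copg2 was at RPKM 10 or more in 12 cells, 9 of them with Mest, and its rho with Mest was −0.06.

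Igf2 was most like Npy, the neuropeptide Y gene (0.66), followed by Stmn1, a microtubule regulator (0.57), and Hmgb1, a chromatin protein (0.54). Cdkn1c was most like 1700030K09Rik (0.53), Septin11 (0.49), a cytoskeletal septin whose symbol the table holds as a date, and Epb4.1l5 (0.48). Mest was nearest to Kazald1 (0.61), Aurkaip1 (0.57) and Sparc, a matrix protein (0.56). Grb10 was nearest to the Wnt receptor gene Fzd3 (0.61), to Smarcc1, a chromatin remodelling subunit (0.58), and to Prps1l3 (0.57). For Peg3 these were Gli3, a factor of Hedgehog signalling (0.47), Tmem179b (0.46) and Rnf216 (0.45). For Ndn they were the histone methyltransferase gene Ehmt2 (0.49), Patz1 (0.48) and Rab13 (0.48), and for Plagl1, on 4 cells, Rpl28 (0.46), Tpm1 (0.45) and Wdr45 (0.44). Each is the top of about 8175 values, so its height comes in part from that choice. The 24 values ran from 0.44 to 0.70 over all cells and from 0.35 to 0.67 over the Pax8 cells, where 16 were lower, with the largest drop being 0.15.

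Receptors and partners of the IGF pathway differed in how widely they were detected. Of 28 listed genes 21 had values, and these were detected in a median of 21 cells, against 16 over all 12087 rows. Igf1r, the receptor that carries the growth signal of Igf2, was detected in 51 cells with a mean of RPKM 15.8 ± 18.6 (SD, n = 57 cells), and Igf2r, which binds Igf2 for degradation and is itself imprinted, in 41 cells with 9.75 ± 17.7. The binding protein gene Igfbp4 was detected in 38 cells with a mean of RPKM 59.6 ± 96.9, and Pik3ca, a kinase subunit of the pathway, in 32. Of the 21, 4 had a rho of 0.3 or more with at least 1 of the 8 genes, where 17.4% of all genes did. They were Igfbp5 with Mest (0.38), Igf2r with Grb10 (0.36), Igfbp7 with Cdkn1c (0.33) and Irs2 with Peg3 (0.31). At 0.4 or more there were 0 of the 21, where 2.9% of all genes passed. Over the Pax8 cells 4 passed 0.3, where 15.8% of all genes did, and 2 passed 0.4, where 2.62% did. These 2 were Pik3r1 with Mest (0.48), detected in 13 cells, and Igf1 with Peg3 (0.45), detected in 1 of the 50.

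Of 63 other imprinted genes listed, 34 had values. They were detected in a median of 17.5 cells, against 16 over all 12087 rows. Cd81, a tetraspanin, was detected in 54 cells with a mean of RPKM 214 ± 251, Gnas in 52, Impact in 47, Ube3a in 46, and Commd1 and Nap1l4 in 44 each. Of these 34 genes 10 had a rho of 0.3 or more with at least 1 of the 8 over all cells, where 17.4% of all genes did, and 5 over the Pax8 cells, where 15.8% did. At 0.4 or more there were 0 of the 34 in either. The highest over all cells was that of Igf2r with Grb10, followed by Peg12 with Ndn (0.355), Nespas with Igf2 (0.353), Airn with H19 (0.352) and Nap1l4 with H19 (0.345). Peg12 was at RPKM 10 or more in 25 of 34 Wt1-only cells against 6 of 12 distal-gene-only cells. Nnat, by contrast, was at that level in 7 of 34 Wt1-only cells against 6 of 12 distal-gene-only cells, and in the authors' deposited table it had a signed fold of −7.89, on the distal side.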

How the data were processed

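Expression was measured by RNA sequencing in 57 single cells. The authors deposited RPKM values per gene and cell, with a count of cells above RPKM 3 per gene, and, for 28 cells, a smaller RPKM table with a signed fold, treated as a score of the authors, per the file headers. TopHat 1.4.1, DESeq and build mm9 appear in the submitters' processing notes, without their roles. No other columns of cells were present. Depth was estimated from the RPKM worth of 1 read and is approximate, since PCR copies were not removed by molecular identifiers.

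The members and lists were chosen with earlier results of these data known. Scores, Spearman rho, partial rho and class medians were computed with Python 3.11.15, numpy 2.4.6, pandas 2.3.3 and scipy 1.17.1, with a pseudocount of 1 on the log2 scale, and rho was tested on simulated data. Cells are not replicates, so no p-value was computed. Shares carry exact Clopper-Pearson 95% intervals. Named genes were the 8 members, the class genes Wt1, Pax8, C1qb, Ccnb1, Sox9 and Pou3f3, the 3 most similar genes per member, the 5 most widely detected of each list, and rows within 200 kb of H19, Igf2 or Cdkn1c. A gene that the rule takes from a list is not reported here. Outside the rule, such genes as Top2a, Tmem100, the podocyte genes, Igfbp5, Peg12 and Nnat were chosen after their values were seen. No doublet caller was run, since chambers were inspected for single cells per the labels' protocols.

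Alternatives were Pearson correlation of log2 values, other thresholds, other scores and cells left out.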

Additional observations from a re-analysis of the deposited data

How the results depend on the processing

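Of 620 recomputed values, 561 moved by less than a spread set for each: 0.136 for a rho, the SD between cells within a class for a log2 difference, the exact interval for a share and 1.5-fold for a count. The SD between cells is wide beside a difference of medians. With the class threshold at RPKM 50, Mest at 0.45 against 1.68 and Ndn at 2.19 against 0.84 counted as unmoved. The G2/M values did not change at all with list members detected in at least 5 cells. The 561 is therefore no measure of stability. Of 536 signed values 55 changed sign, of which 1 had reached 0.3, or 1 on the log2 scale, as reported. The others were small, up to a rho of 0.15, for Igf2 with Grb10, which was −0.091 without the low Pax8 cells, or the class difference of Grb10, 0.86 against −0.10. The correlation in a setting was a Spearman rho, a partial rho or a Pearson r of log2 values. Across all settings the correlation of H19 with Igf2 ran from 0.28 to 0.43 and of Cdkn1c with Wt1 from 0.27 to 0.44. That of Igf2 with Cdkn1c ran from 0.29 to 0.48 and of H19 with Lsp1 from 0.57 to 0.68. That of H19 with the proximal minus distal score ran from 0.28 to 0.63. The class difference of H19 ran from 7.1 to 7.48, that of Cdkn1c from 3.61 to 4.47 and that of Igf2 from 1.82 to 3.71 on the log2 scale. The median log2 level of H19 in Ccnb1-high cells less that in Ccnb1-low cells was 1.04 and reversed to −0.21 with the threshold at RPKM 50. The cause was not tested.

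The count of gene pairs with a rho of 0.3 or more was 6, but 1 without the macrophage-like cells, 1 without every cell with Pax8 below RPKM 5, and 2 without the cells with the fewest detected genes. The 1 pair was H19 with Igf2 in the first case and Igf2 with Cdkn1c in the second. The count past 0.3 for the G2/M score was 0, and 1 by Pearson r with a pseudocount of 1, 0.1 or 10, which was Igf2 at 0.31, 0.31 and 0.30. For the S phase score it was 2, and 1 without the macrophage-like cells, 0 without the low Pax8 cells and 0 with the number of detected genes regressed out. It stayed 2 without the cells with the fewest detected genes, but these were Cdkn1c (0.36) and H19 (0.315), with Igf2 at 0.294. Without the podocyte gene cells the 2 were Igf2 (0.35) and Cdkn1c (0.32), with H19 at 0.257. For the proximal minus distal score it was 2, and 1 by Pearson r with a pseudocount of 0.1, which was H19, or 10, which was Cdkn1c at 0.31 with H19 at 0.285. It was 3 without the cells with the fewest detected genes, with Igf2 at 0.31 beside H19 and Mest. H19 and Igf2 were both detected in 54.4% of cells, in 75.4% above RPKM 0 and in 40.4% at RPKM 5 or more, and Cdkn1c and Wt1 in 68.4%, 84.2% and 54.4% under the same thresholds. The count of genes higher by 1 or more in Ccnb1-high cells was 3, and 1 with the Ccnb1 threshold at RPKM 5, which was Igf2.

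Leaving out the 3 podocyte gene cells was added after seeing the data and gave 0.58 for H19 with the proximal minus distal score. Values near RPKM 1 rest on a few reads for such genes as H19, Igf2 and Cdkn1c, and 1 pool gives no spread between animals. No paired analysis was possible because the cells form 1 group.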
